A study of Mus musculus with 15 samples.

Results

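Oncofetal genes of the liver are active in the fetal organ, are largely silent in adult hepatocytes and can be expressed again in regeneration and in liver tumors. The 9 genes followed here were selected by symbol and are Afp, H19, Igf2, Gpc3, Dlk1, Golm1, Ly6d, Myc and Thy1. A gene was represented by its brightest transcript cluster among those with a single symbol in the platform annotation, and this gave values for 8 of the 9 genes, out of 19938 genes in all. H19 was not analysed here, because the annotation used lists no cluster with H19 as its only symbol. Each of the other 8 genes had 1 cluster.

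Afp encodes alpha-fetoprotein, the main plasma protein of the fetus and a serum marker of hepatocellular carcinoma. Igf2 and H19 are neighboring imprinted genes, one for a fetal growth factor and the other for a noncoding RNA, and Dlk1 is an imprinted gene for a membrane protein of hepatoblasts that resembles Notch ligands. Gpc3 encodes a heparan sulfate proteoglycan of the cell surface, and Golm1 encodes a membrane protein of the Golgi apparatus that is also released into serum in liver disease. Ly6d and Thy1 (CD90) are small proteins held in the membrane by a lipid anchor, and Myc is a transcription factor of growth that acts as a dimer with Max.

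Liver RNA came from male C57BL/6J mice and was measured on arrays of the type GeneChip Mouse Gene 1.0 ST, 3 in each of 5 groups. From week 8 on, the mice received a basal diet, an atherogenic and high-fat diet (Ath+HF), or the Ath+HF diet with 3% branched-chain amino acids (Ath+HF+BCAA). The basal diet arrays were all of 38w, after 30 weeks of feeding, and both Ath+HF diets were measured at 38w and at 68w, after 30 and 60 weeks of feeding. The comparisons ask how the markers differ between the diets, between the ages and with the supplement, in a model that was followed to the age at which liver tumors were examined. The sources used here name neither the mouse behind each array nor the part of the liver it came from, so the spread between arrays may be partly technical, and RNA of a tumor and of the surrounding liver cannot be told apart. Because no basal diet array of 68w was used here, a comparison of 68w with 38w arrays mixes age with the time of feeding and with any batch of processing, and these cannot be told apart.

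The values are log2 signals normalized by RMA, with array medians between 6.91 and 7.16. All 6 hepatocyte markers, such as Alb, were measured, and their summed signal lay between 16.03 and 16.25 on the log2 scale in all 15 arrays. At 68w this sum was 16.18 to 16.25 in arrays labelled Ath+HF and 16.03 to 16.10 in those labelled Ath+HF+BCAA. Of the 6 markers, 2 were called lower in the latter and none higher, beside 36.2% of all genes called. Groups carry the names that the labels give, and the arrays labelled Ath+HF 68w stood apart from both 38w groups on the Ath+HF diets. The summed signal of 9 macrophage markers was 13.48 to 14.06 in the 6 arrays of the Ath+HF diets at 38w and 12.55 to 12.60 in the basal diet arrays, but 11.76 to 11.96 in arrays labelled Ath+HF 68w and 14.12 to 14.45 in those labelled Ath+HF+BCAA 68w. Each direction between the 68w groups rests on these labels. Had both 68w labels been exchanged, this would turn the sign of every difference between them, and such an exchange cannot be told apart from an effect of the supplement with these arrays. The mean over both 68w groups, used below for the comparison of the ages, is the same under either labelling.

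Differences were tested with limma in a single fit of all arrays, and a gene is called higher or lower at a Benjamini-Hochberg adjusted p under 0.05 over the 19938 genes. Comparisons that use the same group share its arrays and are therefore not independent. As a reference for dim signals, chosen after the values were seen, the 1015 olfactory receptor genes, which the liver is not known to use, had a median of 5.06 and a 95th percentile of 6.49. Gpc3, with the lowest mean of the 8 genes, was brighter than 92.4% of these receptor genes and Afp than 95.6%, while the other 6 were brighter than 98.8% or more. Gpc3 and Afp were therefore measured close to the signal of genes that are not used. These shares use means over all arrays, and Golm1 was dim in some groups. It was 6.12 to 6.20 in arrays labelled Ath+HF 68w, where the receptor genes had a 95th percentile of 6.84. In the basal diet arrays it was 6.29 to 6.66, beside a 95th percentile of 6.46. Differences of Golm1 from these groups therefore start from signals near those of genes that are not used.

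**Figure D1:**
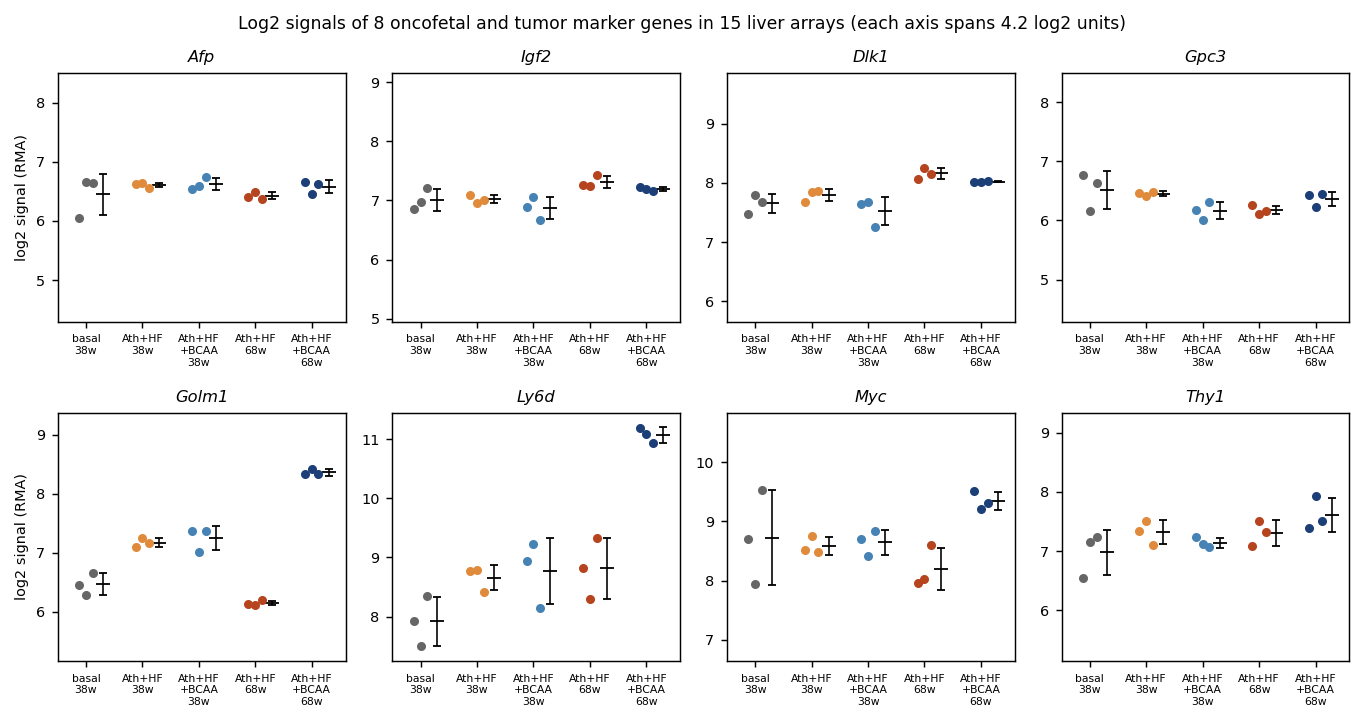
Log2 signal (RMA) of the 8 measured genes on the y axes, with the 5 groups on the x axes. Points are arrays and bars are the mean ± SD of 3 arrays; every axis spans the same range of log2 units, but absolute levels of different genes are not comparable. Group means of Golm1 (8.36), Ly6d (11.07) and Myc (9.34) were highest under the label Ath+HF+BCAA 68w and those of Dlk1 (8.16) and Igf2 (7.31) under Ath+HF 68w, while those of Afp lay between 6.42 and 6.63.

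Golm1 was called in 9 of the 11 comparisons, more than any other of the 8 genes. Its signal was 6.46, 6.29 and 6.66 in the basal diet arrays, 7.10, 7.24 and 7.17 in the Ath+HF 38w arrays and 7.36, 7.02 and 7.37 in the Ath+HF+BCAA 38w arrays. At 68w it was 6.13, 6.12 and 6.20 in arrays labelled Ath+HF and 8.32, 8.42 and 8.33 in those labelled Ath+HF+BCAA. The 6 arrays of the Ath+HF diets at 38w lay above all basal diet arrays, and the 68w groups lay on either side of every 38w array.

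At 38w, Golm1 was 0.70 higher (log2, standard error 0.11, adjusted p = 0.00216) in the Ath+HF group and 0.78 higher (standard error 0.11, adjusted p = 0.00097) in the Ath+HF+BCAA group than in the basal diet group. It was the only one of the 8 genes called in either comparison, where 4.23% and 5.49% of all genes were called. Over both Ath+HF diets together the difference was 0.74 (standard error 0.10, adjusted p = 0.000265), 1.67-fold, and 1 of 8 genes was called beside 7% of all genes. Between the supplemented and the unsupplemented group of 38w, Golm1 differed by 0.08 with a 95% interval from -0.16 to 0.32. None of the 8 genes was called in this comparison, and neither was any other of the 19938 genes (0%), with 1528 genes at an unadjusted p under 0.05. With the replicate number in the fit, limma called 0 genes as well, and none of the 8 genes was called by the methods' test.

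At 68w, Golm1 was 2.21 higher (standard error 0.11, adjusted p = 2.67e-09) in arrays labelled Ath+HF+BCAA than in those labelled Ath+HF, a 4.62-fold difference that ranked 130 from the top of 19938 genes. The 3 genes called of the 8 were Golm1, Ly6d and Myc, all higher, beside 36.2% of all genes called and 19.8% called higher. The difference between the groups with and without BCAA was 2.13 larger at 68w than at 38w (standard error 0.16, adjusted p = 4.8e-07). Such a change between the ages was called for 2 of the 8 genes, Golm1 and Ly6d, beside 20.6% of all genes. From 38w to 68w, Golm1 fell by 1.02 between the arrays labelled Ath+HF (adjusted p = 1.34e-05) and rose by 1.11 between those labelled Ath+HF+BCAA (adjusted p = 3.3e-06). Averaged over both diets, the ages differed by 0.05 with an interval from -0.12 to 0.21.

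Against the basal diet arrays of 38w, Golm1 was 1.89 higher in the Ath+HF+BCAA 68w arrays (standard error 0.11, adjusted p = 1.08e-08) and 0.32 lower in the Ath+HF 68w arrays (log2 difference -0.32, standard error 0.11, adjusted p = 0.0355). The last call was lost without basal replicate 1 (adjusted p = 0.0678) or replicate 3 (difference -0.22, adjusted p = 0.15) and without any of the 3 Ath+HF 68w arrays (adjusted p from 0.0602 to 0.0907). In order of level, the Ath+HF 68w group was lowest, followed by the basal diet group, the Ath+HF 38w group, the Ath+HF+BCAA 38w group and the Ath+HF+BCAA 68w group, and only the neighboring 38w groups on the Ath+HF diets did not differ beyond the test's threshold.

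The genes with the signal most like that of Golm1 over the 15 arrays were Cd68, a lysosomal glycoprotein of macrophages, C1qb, a chain of complement C1q made by macrophages, and Laptm5, a lysosomal protein of blood cells, each with a Pearson correlation of 0.99 as a description. Cd68 was 8.89 in the basal diet group, 9.99 and 10.04 in the 38w groups without and with BCAA, 8.61 in the group labelled Ath+HF 68w and 11.22 in that labelled Ath+HF+BCAA 68w, as means of 3 arrays. The group means of the macrophage sum were in the same order as those of Golm1, apart from the 38w groups on the Ath+HF diets, which overlapped in both measures. This order was not particular to macrophage markers. The cholangiocyte and progenitor sum had the order of Golm1, with means from 9.96 in the Ath+HF 68w group to 11.34 in the Ath+HF+BCAA 68w group. The fibroblast and stellate cell sum, from 12.95 to 13.78, departed from it only between the 38w groups on the Ath+HF diets. Of 9 macrophage markers measured of 10, 8 were higher and none lower at 68w with BCAA than without (median 2.24, beside -0.09 over all genes and 36.2% of all genes called), and 8 were higher at 38w on the Ath+HF diets than on the basal diet (median 1.15, beside -0.01 over all genes and 7% of all genes called). The part of macrophages in the Golm1 signal was not tested. In bulk liver RNA, more cells of a type and more RNA per cell cannot be told apart.

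**Figure D2:**
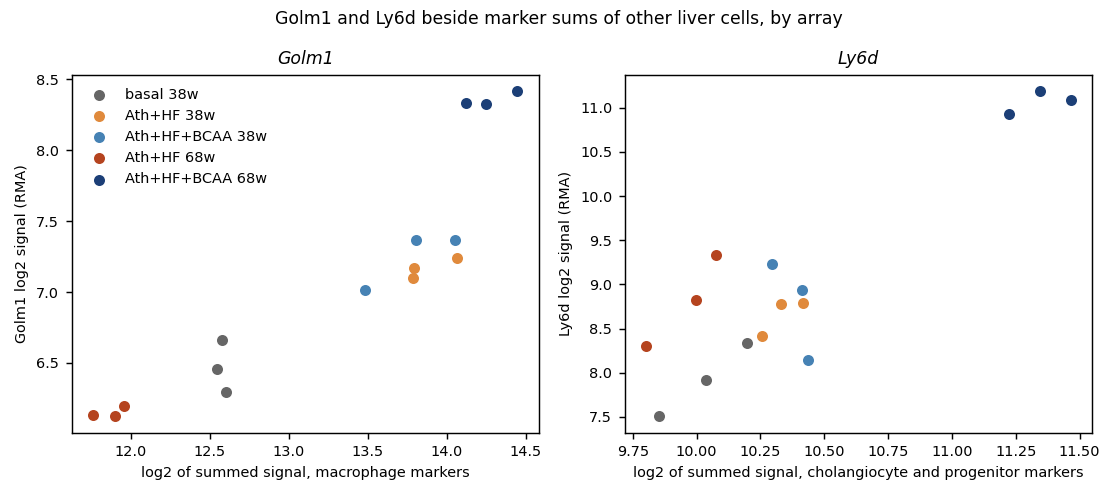
Signal of Golm1 beside the summed signal of 9 macrophage markers (left) and of Ly6d beside that of 7 cholangiocyte and progenitor markers (right), all on the log2 scale, with 1 point for each of 15 arrays colored by group. Golm1 was lowest and highest in the groups with the lowest (11.76 to 11.96) and highest (14.12 to 14.45) macrophage sum, whereas Ly6d stood at 10.93 or above only in the 3 arrays of highest cholangiocyte and progenitor signal and did not follow the order of that sum among the others. By group means, the cholangiocyte and progenitor sum was lowest and highest in the same groups as Golm1.

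Ly6d had the largest difference from the basal diet group among the 8 genes. Its signal was 7.92, 7.51 and 8.34 in the basal diet arrays, 8.78, 8.79 and 8.41 in the Ath+HF 38w arrays and 8.93, 9.23 and 8.14 in the Ath+HF+BCAA 38w arrays. At 68w it was 8.82, 8.31 and 9.34 in arrays labelled Ath+HF and 11.19, 11.09 and 10.93 in those labelled Ath+HF+BCAA. The last 3 values lay above all 12 others, while the 4 other groups overlapped except for the Ath+HF 38w group, which lay above the basal diet group.

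At 68w, Ly6d was 2.25 higher (standard error 0.28, adjusted p = 1.12e-05) with BCAA than without, 4.75-fold, and at 38w 0.11 higher with an interval from -0.48 to 0.70. The change of this difference between the ages was 2.14 (standard error 0.39, adjusted p = 0.000996). Against the basal diet arrays, the Ath+HF+BCAA 68w arrays were 3.15 higher (standard error 0.28, adjusted p = 3.2e-07), 8.85-fold, which ranked 16 from the top of 19938 genes. The Ath+HF 68w arrays were 0.90 higher than the basal diet arrays (standard error 0.28, adjusted p = 0.0191), a call that was lost without basal replicate 2 (0.69, adjusted p = 0.0836) or Ath+HF 68w replicate 3 (0.64, adjusted p = 0.102). At 38w, the Ath+HF diets together stood 0.79 above the basal diet (standard error 0.24, adjusted p = 0.0604), and this difference passed the threshold without Ath+HF+BCAA 38w replicate 3 (0.95, adjusted p = 0.0141), basal replicate 3 (adjusted p = 0.0438), or Ath+HF 68w replicate 2 or 3 (adjusted p = 0.0457 and 0.0408).

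Between the ages, Ly6d rose by 2.30 in the groups with BCAA (standard error 0.28, adjusted p = 1.48e-05) and differed by 0.16 without BCAA, with an interval from -0.43 to 0.75. The mean over both diets was 1.23 higher at 68w (standard error 0.20, adjusted p = 0.000135). The genes with the most similar signal were Ablim1, an actin-binding protein, Srxn1, the sulfiredoxin that restores oxidized peroxiredoxins, and Mast2, a kinase, with correlations of 0.98, 0.97 and 0.97 over the 15 arrays. Of the other genes of the Ly6 family, 13 were measured, and at 68w 2 were higher with BCAA and none lower, beside 36.2% of all genes called. Ly6e, an interferon-induced member of the family, was at a mean of 11.61 in the basal diet group, 12.51 and 12.53 in the 38w groups, 12.26 in the Ath+HF 68w group and 13.32 in the Ath+HF+BCAA 68w group, a difference of 1.06 at 68w (standard error 0.14, adjusted p = 2.24e-05). Lynx1, a modulator of nicotinic acetylcholine receptors, was 0.78 higher (standard error 0.19, adjusted p = 0.00436).

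Myc was higher with BCAA at 68w as well, but its spread was wide. It was 8.70, 7.95 and 9.54 in the basal diet arrays, 8.52, 8.75 and 8.48 in the Ath+HF 38w arrays and 8.70, 8.41 and 8.83 in the Ath+HF+BCAA 38w arrays. At 68w it was 7.95, 8.03 and 8.61 in arrays labelled Ath+HF and 9.51, 9.21 and 9.31 in those labelled Ath+HF+BCAA. The 68w groups did not overlap, whereas the basal diet arrays alone covered the whole range of all 15 values. In the paper, Myc, EpCAM and CD90 at 68w were significantly raised by the Ath+HF diet against basal and significantly lowered with BCAA. Under the labels used here, the directions of Myc and Epcam with BCAA at 68w are the opposite. Thy1, which encodes CD90, differed by 0.31 in that comparison and was not called (adjusted p = 0.197 by limma). Whether the same livers were measured is not stated. For the arrays of this series, the paper reports that BCAA repressed inflammation and fibrosis genes raised by the Ath+HF diet. Under the same labels, 8 of 9 macrophage and 12 of 15 fibroblast and stellate cell markers were higher with BCAA at 68w. None of either list was lower, beside 36.2% of all genes called.

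The difference of Myc at 68w was 1.15 (standard error 0.28, adjusted p = 0.0048), 2.22-fold, and it was called with each array left out in turn but not by the methods' test with Bonferroni's method (adjusted p = 0.067). At 38w the supplement groups differed by 0.06 with an interval from -0.54 to 0.66, and the change of this difference between the ages, 1.09 (standard error 0.40, adjusted p = 0.0669), missed the threshold. It passed without basal replicate 2 (adjusted p = 0.0156), basal replicate 3 (adjusted p = 0.0122) or Ath+HF 68w replicate 3 (1.29, adjusted p = 0.0393). Against the basal diet, Myc differed by -0.53 in the Ath+HF 68w group (adjusted p = 0.147) and by 0.62 in the Ath+HF+BCAA 68w group (adjusted p = 0.0881). Without basal replicate 2 the former was -0.92 (adjusted p = 0.00759), and without basal replicate 3 the latter was 1.02 (adjusted p = 0.00191). From 38w to 68w, Myc with BCAA differed by 0.70 (adjusted p = 0.0613), which passed without basal replicate 2 (adjusted p = 0.0147) or 3 (adjusted p = 0.0116).

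Of 12 other genes of the network of factors that dimerize with Myc or its partners, 3 were higher and 1 lower with BCAA at 68w, beside 36.2% of all genes called. Max, the obligate partner, was 0.47 higher (standard error 0.11, adjusted p = 0.00405), Mxd1, a repressor that competes for Max, was 0.55 higher (standard error 0.11, adjusted p = 0.000983), and Mlxip, a glucose-sensing factor of the same network, 0.56 higher (standard error 0.11, adjusted p = 0.000807). Of 23 genes known as targets of Myc, 5 were higher and 2 lower (median 0.06), beside 36.2% of all genes called, or 4 and 3 with quantile normalization. Ccnd2, a D-type cyclin, was 1.03 higher (standard error 0.13, adjusted p = 2.04e-05), Cdk4, its kinase partner, 0.52 higher (adjusted p = 0.000983) and Ncl, the nucleolar protein nucleolin, 0.34 higher (adjusted p = 0.00574). Ldha, lactate dehydrogenase A, went the other way with a difference of -1.20 (standard error 0.11, adjusted p = 7.62e-07). The genes most like Myc over the arrays were Eif3b, a subunit of a translation initiation factor, Col12a1, a collagen chain, and Vcl, which encodes vinculin, with correlations of 0.92, 0.90 and 0.89.

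**Figure D3:**
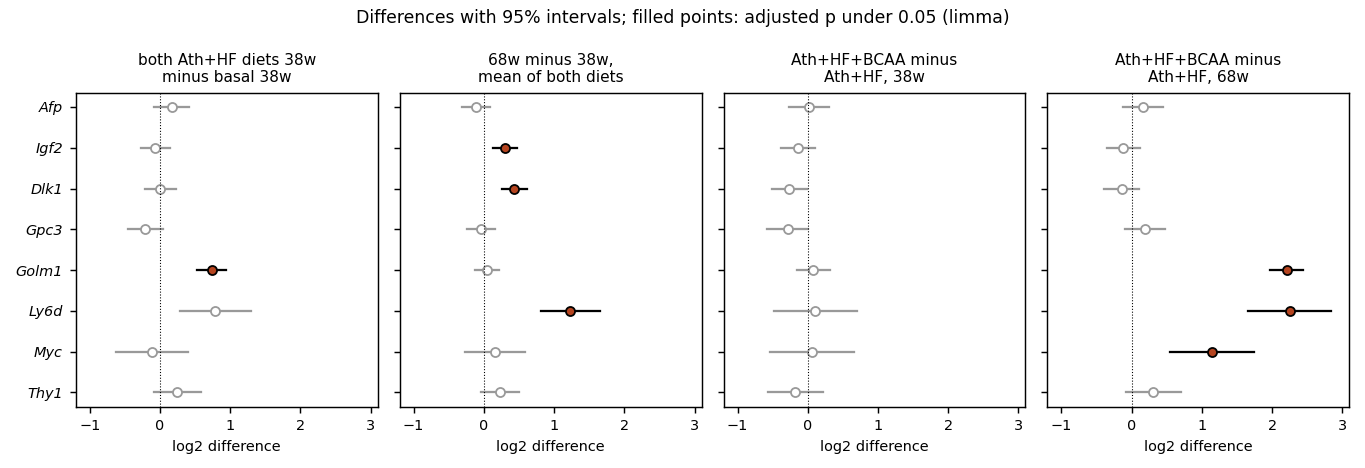
Log2 differences (x axes) of the 8 genes (y axis) in 4 comparisons, with 95% intervals from limma and filled points at an adjusted p under 0.05. The interval of each gene in the comparison with and without BCAA at 38w lay near or across 0 and none was called, whereas Golm1 (2.21), Ly6d (2.25) and Myc (1.15) were called at 68w; Igf2 (0.30), Dlk1 (0.43) and Ly6d (1.23) were called between the ages.

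Dlk1 and Igf2 differed between the ages, and no difference with BCAA was called for either. Dlk1 was 7.48, 7.80 and 7.67 in the basal diet arrays, 7.68, 7.84 and 7.86 in the Ath+HF 38w arrays and 7.65, 7.67 and 7.25 in the Ath+HF+BCAA 38w arrays. At 68w it was 8.07, 8.25 and 8.16 in arrays labelled Ath+HF and 8.01, 8.01 and 8.03 in those labelled Ath+HF+BCAA. All 6 arrays of 68w lay above all 9 arrays of 38w. Averaged over both diets, Dlk1 was 0.43 higher at 68w than at 38w (standard error 0.08, adjusted p = 0.000654), 1.35-fold. Called genes among the 8 in this comparison were Dlk1, Igf2 and Ly6d, all higher, beside 48.5% of all genes called and 25.9% called higher.

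Within the diets, Dlk1 was 0.37 higher at 68w without BCAA (standard error 0.12, adjusted p = 0.0226) and 0.49 higher with BCAA (standard error 0.12, adjusted p = 0.00386). The former call was lost without Ath+HF 38w replicate 1 (0.31, adjusted p = 0.0885), Ath+HF 68w replicate 2 (0.32, adjusted p = 0.0842) or Ath+HF 68w replicate 3 (0.37, adjusted p = 0.0539), and with array medians set equal (0.25, adjusted p = 0.135). Of the 8 genes, 2 were called between the ages without BCAA (37.6% of all genes), namely Dlk1 and Golm1, and 4 with BCAA (38.8% of all genes), namely Dlk1, Igf2, Golm1 and Ly6d. Against the basal diet arrays of 38w, Dlk1 was 0.51 higher in the Ath+HF 68w group (adjusted p = 0.00368) and 0.36 higher in the Ath+HF+BCAA 68w group (adjusted p = 0.0196), with both calls lost once array medians were set equal (0.32, adjusted p = 0.0566, and 0.18, adjusted p = 0.255). The latter was also lost with quantile normalization (0.20, adjusted p = 0.222) and without basal replicate 1 (0.28, adjusted p = 0.0908). With BCAA it differed by -0.27 at 38w (interval from -0.52 to -0.02, adjusted p = 0.635) and by -0.14 at 68w (interval from -0.39 to 0.11).

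Igf2 moved in the same direction by less. It was 6.85, 6.97 and 7.22 in the basal diet arrays, 7.09, 6.96 and 7.00 in the Ath+HF 38w arrays and 6.90, 7.05 and 6.68 in the Ath+HF+BCAA 38w arrays. At 68w it was 7.26, 7.25 and 7.42 in arrays labelled Ath+HF and 7.22, 7.19 and 7.16 in those labelled Ath+HF+BCAA. The 68w arrays lay above those of the Ath+HF diets at 38w and overlapped with basal replicate 3. The mean over both diets was 0.30 higher at 68w (standard error 0.08, adjusted p = 0.00562), 1.23-fold.

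This comparison depended on the scale of the arrays. With array medians set equal, the differences of all genes between 68w and 38w shifted by -0.14, Igf2 differed by 0.17 (adjusted p = 0.104) and Dlk1 by 0.29 (adjusted p = 0.0131). With quantile normalization of the deposited values, Igf2 differed by 0.18 (adjusted p = 0.0971) and Dlk1 by 0.39 (adjusted p = 0.00236). For the mean over both diets, the call for Dlk1 thus held under either scaling and that for Igf2 under neither, while the calls of Dlk1 within the Ath+HF diet and against the basal diet were lost as given above. The calls of Igf2 with BCAA between the ages (0.32, adjusted p = 0.036) and in the Ath+HF 68w group against the basal diet (0.30, adjusted p = 0.0489) were likewise lost with either scaling. The latter was lost without any of 12 of the 15 arrays (adjusted p up to 0.183), and the former without Ath+HF+BCAA 38w replicate 1 or 3 or any Ath+HF+BCAA 68w array (0.22 to 0.33, adjusted p from 0.0629 to 0.156). Without BCAA, the ages differed by 0.29 (adjusted p = 0.0532), and this passed the threshold without basal replicate 1 or 3 or Ath+HF+BCAA 38w replicate 2 or 3 (adjusted p from 0.0348 to 0.0452).

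The genes with the signal most like that of Dlk1 were Fam189b, Card14, a scaffold protein of NF-kappa-B signaling, and Fthl17a, a ferritin-like gene, with correlations of 0.97, 0.96 and 0.96, and those most like Igf2 were A230051N06Rik, Tomm20l and Lcn9, each with a correlation of 0.95. Over the 15 arrays the signals of Igf2 and Dlk1 correlated with 0.85 and those of Golm1 and Ly6d with 0.80, the highest values among the pairs of the 8 genes, given as a description since the arrays share their groups.

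The bases in front of the start of 5 of the genes were read from the RefSeq promoter table of GRCm38.p6, which matched Afp, Igf2, Dlk1, Golm1 and Gpc3. Shown are 250 bases upstream of a listed start for Golm1, whose level differed most clearly between groups, for Dlk1, which was higher at 68w in both diets and whose listed start lies within the gene, and for Afp, the classical member without a called difference. They are written 5' to 3' on the strand of the gene, with motif letters in capitals, for Golm1 at chr13:59675785-59676034 (minus strand), for Dlk1 at chr12:109452573-109452822 (plus strand) and for Afp at chr5:90490464-90490713 (plus strand).
Golm1: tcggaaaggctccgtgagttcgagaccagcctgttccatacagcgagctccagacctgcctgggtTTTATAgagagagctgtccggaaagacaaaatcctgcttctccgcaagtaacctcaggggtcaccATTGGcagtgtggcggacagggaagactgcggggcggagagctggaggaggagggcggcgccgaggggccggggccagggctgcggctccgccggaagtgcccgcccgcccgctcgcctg
Dlk1: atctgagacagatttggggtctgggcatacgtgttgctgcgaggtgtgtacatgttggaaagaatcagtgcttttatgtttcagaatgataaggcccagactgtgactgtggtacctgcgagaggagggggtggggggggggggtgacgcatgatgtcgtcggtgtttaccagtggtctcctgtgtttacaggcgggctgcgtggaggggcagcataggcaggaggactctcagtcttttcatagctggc
Afp: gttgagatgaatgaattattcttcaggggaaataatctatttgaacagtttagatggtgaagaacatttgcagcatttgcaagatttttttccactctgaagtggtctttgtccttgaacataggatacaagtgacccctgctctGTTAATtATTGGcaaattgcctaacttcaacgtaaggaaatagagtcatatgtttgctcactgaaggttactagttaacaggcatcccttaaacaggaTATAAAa

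Capitals mark CCAAT, the letters bound by NF-Y, a factor examined in the study, which read ATTGG on the other strand, TATAAA, the letters of the core promoter bound by TBP, written TTTATA on the other strand, and GTTAAT, letters within the site of the hepatocyte factor HNF1. The E box CACGTG, bound by Myc with Max, was searched as well, on both strands like the others, and none of these motifs overlapped another. The Golm1 sequence held ATTGG at positions -120 to -116 from the start and TTTATA at -185 to -180, and the Afp sequence held GTTAAT at -105 to -100, ATTGG at -98 to -94 and TATAAA at -7 to -2. The Dlk1 sequence held none of them, but it lies within the gene, whose annotated span begins at 109452485. The bases in front of that outer start of Dlk1 were not read. Over all 32817 promoters of the table, 33.8% held CCAAT, 12.4% TATAAA, 6.44% GTTAAT and 6.02% CACGTG in a window of this length. Matches of this kind are a description of the letters.

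Other imprinted genes were examined because Igf2, H19 and Dlk1 belong to a group of imprinted genes that decline together after birth. Meg3 and Rian, maternally expressed noncoding RNAs of the Dlk1 locus, were 0.43 (standard error 0.11, adjusted p = 0.00373) and 0.38 higher (standard error 0.11, adjusted p = 0.00971) at 68w over both diets. Meg3 was 7.29, 7.27 and 7.37 in arrays labelled Ath+HF 68w and 7.13, 6.98 and 6.91 in those labelled Ath+HF+BCAA 68w, against means of 6.76 and 6.69 in the same diets at 38w. Of 18 imprinted genes measured of 21, including Igf2 and Dlk1, 8 were higher and 1 lower at 68w (median 0.12, beside 0.04 over all genes and 48.5% of all genes called). This split became 3 higher and 4 lower once array medians were set equal, or 6 and 2 under quantile normalization, so no common direction of the group held over the scalings.

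With BCAA at 68w, 5 of the 18 imprinted genes were higher and 3 lower, beside 36.2% of all genes called. Grb10, an adaptor that dampens insulin receptor signaling, was 1.23 higher (standard error 0.12, adjusted p = 1.07e-06) and Phlda2, a growth-restraining gene of the placenta, 1.35 higher (standard error 0.17, adjusted p = 1.04e-05). Peg3, a zinc finger gene expressed from the paternal copy, was at -1.82 (standard error 0.23, adjusted p = 1.57e-05). Peg3 was 8.21, 7.86 and 9.01 in arrays labelled Ath+HF 68w and 6.68, 6.40 and 6.55 in those labelled Ath+HF+BCAA 68w, and means of the 38w groups lay between 7.27 and 7.44. Igf2 and Dlk1, the imprinted genes among the markers, were not called.

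The receptors and binding proteins of Igf2 were measured in full. Igf1r, the receptor that transmits its signal, was 6.95 in the basal diet group, 8.09 and 7.78 in the 38w groups, 6.91 in the Ath+HF 68w group and 7.98 in the Ath+HF+BCAA 68w group. It was 0.98 higher on the Ath+HF diets at 38w (standard error 0.10, adjusted p = 2.93e-05) and 1.07 higher with BCAA at 68w (standard error 0.11, adjusted p = 2.46e-06). Igf2r, which clears Igf2, was 0.46 higher with BCAA at 68w (standard error 0.11, adjusted p = 0.00366). Of the 12 genes of the axis other than Igf2, 3 were higher and 6 lower in that comparison, beside 36.2% of all genes called. The split was 3 and 3 among all 13 genes with quantile normalization. Igfbp7, a binding protein of endothelial and stellate cells, was 1.08 higher (adjusted p = 5.34e-06) and Igfals, the acid-labile subunit of the complex that carries circulating growth factor, was at -1.02 (adjusted p = 0.00469).

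Among 14 genes of the Notch pathway other than Dlk1, 7 were higher and none lower with BCAA at 68w (median 0.24), beside 36.2% of all genes called and 19.8% called higher. With quantile normalization, 6 were higher and 1 lower among all 15. Adam17, a protease that cleaves Notch and other membrane proteins, was 1.19 higher (standard error 0.13, adjusted p = 3.7e-06), Hey1, a target of Notch, 0.95 higher (standard error 0.12, adjusted p = 1.04e-05), Jag1, a ligand, 0.83 higher (standard error 0.14, adjusted p = 0.000177) and Notch2, the receptor of bile duct formation, 0.72 higher (standard error 0.11, adjusted p = 0.000117). The mean of Hey1 rose from 6.58 in the basal diet group to 7.00 and 7.11 in the 38w groups on the Ath+HF diets, a difference of 0.48 (adjusted p = 0.0083).

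Afp showed no called difference in any of the 11 comparisons. It was 6.05, 6.65 and 6.64 in the basal diet arrays, 6.62, 6.64 and 6.56 in the Ath+HF 38w arrays, 6.54, 6.59 and 6.74 in the Ath+HF+BCAA 38w arrays, 6.41, 6.49 and 6.37 in arrays labelled Ath+HF 68w and 6.66, 6.45 and 6.63 in those labelled Ath+HF+BCAA 68w. All values but that of basal replicate 1 lay within the span from 6.37 to 6.74. With BCAA, Afp differed by 0.02 at 38w (interval from -0.26 to 0.31) and by 0.16 at 68w (interval from -0.13 to 0.44), and at 38w the Ath+HF diets stood 0.17 above the basal diet (interval from -0.08 to 0.41). The gene most like Afp was Clec10a, a lectin of macrophages and dendritic cells, with a correlation of 0.92, followed by LOC665004 and Nfatc2ip with 0.80 and 0.76.

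Alb and Afm are relatives of Afp in the albumin gene cluster that the adult liver uses. Alb had group means from 14.00 to 14.08, with a difference of -0.03 with BCAA at 68w (standard error 0.08). Afm, which encodes afamin, was 0.63 lower at 68w than at 38w over both diets (log2 difference -0.63, standard error 0.22, adjusted p = 0.0286). Of the factors that silence or drive Afp, 12 of 14 were measured, and 2 were higher and 5 lower with BCAA at 68w, beside 36.2% of all genes called. Zhx2, the postnatal repressor of Afp and H19 in the mouse, differed by -0.04 (standard error 0.12), and Zbtb20, a repressor of Afp, was 0.40 higher (standard error 0.13, adjusted p = 0.029). Foxa3 (-0.65, adjusted p = 0.000629), Cebpa (-0.70, adjusted p = 0.000918) and Foxa1 (-0.74, adjusted p = 0.00368), hepatocyte transcription factors, were lower.

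Gpc3 was not called in any comparison either. It was 6.76, 6.15 and 6.64 in the basal diet arrays, 6.46, 6.41 and 6.49 in the Ath+HF 38w arrays, 6.17, 6.01 and 6.31 in the Ath+HF+BCAA 38w arrays, 6.26, 6.11 and 6.16 in arrays labelled Ath+HF 68w and 6.42, 6.22 and 6.45 in those labelled Ath+HF+BCAA 68w. The basal diet arrays spanned the range of nearly all others. The difference closest to the threshold was that of the Ath+HF 68w group from the basal diet group (-0.34, standard error 0.13, adjusted p = 0.0561). It was called with array medians set equal (-0.53, adjusted p = 0.00472) and with quantile normalization (-0.57, adjusted p = 0.00464). Weights per array (adjusted p = 0.0285), the replicate number in the fit (adjusted p = 0.0266) and leaving out dim genes (adjusted p = 0.0406) gave this call as well. It was also called without basal replicate 2 (-0.53, adjusted p = 0.00284). That setting also gave calls for lower Gpc3 in the Ath+HF+BCAA groups of 38w (-0.54, adjusted p = 0.0144) and 68w (-0.34, adjusted p = 0.0232). The last call was also made with array medians set equal (adjusted p = 0.042). Between the ages without BCAA, Gpc3 differed by -0.28 (adjusted p = 0.118), which passed with equal array medians (-0.39, adjusted p = 0.0291) and with quantile normalization (-0.44, adjusted p = 0.0202). It also passed with only the groups compared (adjusted p = 0.0422) and without basal replicate 2 (adjusted p = 0.0392). With BCAA, the difference was -0.29 at 38w (interval from -0.57 to -0.001) and 0.19 at 68w (interval from -0.10 to 0.48).

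The other glypicans, which bind growth factors and morphogens at the cell surface, did differ at 68w. Gpc1 was 9.54, 9.46 and 9.59 in arrays labelled Ath+HF and 8.03, 7.94 and 8.17 in those labelled Ath+HF+BCAA, with group means from 8.84 to 9.19 at 38w, and its difference was -1.49 (standard error 0.12, adjusted p = 1.83e-07). Gpc6 went the other way, with 7.52, 7.56 and 7.40 in arrays labelled Ath+HF and 8.36, 8.45 and 8.33 in those labelled Ath+HF+BCAA, a difference of 0.89 (standard error 0.12, adjusted p = 1.9e-05). Gpc5 differed by -0.40 (adjusted p = 0.0149), Gpc2 by -0.01 and Gpc4 by -0.27, the last 2 not called. Notum, listed with the glypican genes, was at -0.72 (standard error 0.14, adjusted p = 0.000763), and Sulf1, a sulfatase that edits heparan sulfate, was 0.68 higher (standard error 0.13, adjusted p = 0.000963). The genes most like Gpc3 were Spz1, Ints2 and Csrnp2, with correlations of 0.82, 0.81 and 0.80.

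Thy1 was 6.55, 7.15 and 7.24 in the basal diet arrays, 7.33, 7.51 and 7.11 in the Ath+HF 38w arrays, 7.23, 7.13 and 7.07 in the Ath+HF+BCAA 38w arrays, 7.08, 7.51 and 7.32 in arrays labelled Ath+HF 68w and 7.38, 7.94 and 7.51 in those labelled Ath+HF+BCAA 68w. Apart from basal replicate 1 and Ath+HF+BCAA 68w replicate 2, the groups lay close together. Thy1 was called in the Ath+HF+BCAA 68w group against the basal diet group (0.63, standard error 0.18, adjusted p = 0.0106), a call that was lost without basal replicate 1 (0.41, adjusted p = 0.062), without Ath+HF+BCAA 68w replicate 2 (0.47, adjusted p = 0.0666) and under either scaling. With BCAA it differed by 0.31 at 68w (interval from -0.08 to 0.70) and by -0.18 at 38w (interval from -0.56 to 0.21). From 38w to 68w with BCAA it differed by 0.47 (adjusted p = 0.0532), which passed without basal replicate 1 (adjusted p = 0.0224), basal replicate 3 (adjusted p = 0.0451) or Ath+HF+BCAA 68w replicate 1 (0.58, adjusted p = 0.041).

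Thy1 is also known from T cells and fibroblasts. Of 9 T cell markers, 6 were higher and none lower with BCAA at 68w (median 0.50), beside 36.2% of all genes called. Their summed signal was 10.36 to 11.24 in arrays labelled Ath+HF+BCAA 68w and 9.94 to 10.08 in those labelled Ath+HF 68w. Cd3e, a subunit of the T cell receptor complex, was chosen after its values were seen, and it was 8.28, 9.22 and 8.27 in the former, so that it was highest in the replicate in which Thy1 was highest. The 3 genes most like Thy1 over the arrays were Hap1, Def6 and Gpr18, with correlations of 0.90, 0.90 and 0.89, and Def6 is a signaling protein of lymphocytes. Of 15 fibroblast and stellate cell markers, 12 were higher and none lower with BCAA at 68w (median 1.01, beside 36.2% of all genes called), with sums of 13.75 to 13.84 against 12.83 to 13.12. Their part in the Thy1 signal was not tested.

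Against the basal diet arrays of 38w, 4 of the 8 genes were called in the Ath+HF 68w group, with Igf2, Dlk1 and Ly6d higher and Golm1 lower, beside 38.1% of all genes. In the Ath+HF+BCAA 68w group, 4 were called, namely Dlk1, Golm1, Ly6d and Thy1, all higher, beside 44.6% of all genes and 22.9% called higher. With array medians set equal, the differences of all genes shifted by -0.19 in both comparisons, and the genes called of the 8 became 1 higher and 2 lower in the Ath+HF 68w group and 2 higher and 1 lower in the Ath+HF+BCAA 68w group. With quantile normalization they became 2 higher and 2 lower, and 2 higher and 0 lower. Where the count of lower genes grew, the gene added was Gpc3. The arrays of both 68w groups did not overlap for 5 of the 8 genes, higher with BCAA for Golm1, Ly6d and Myc and lower for Igf2 and Dlk1, beside 58.7% of all genes.

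Markers of tumor-initiating and progenitor cells other than Thy1 differed more at 68w. Epcam, an adhesion molecule of progenitor and bile duct cells, was 6.81, 6.22 and 6.25 in the basal diet arrays, 5.75, 6.29 and 6.28 in arrays labelled Ath+HF 68w and 7.99, 7.79 and 7.81 in those labelled Ath+HF+BCAA 68w, with means of 6.50 and 6.45 in the 38w groups on the Ath+HF diets. The last 3 values lay above all others, and the difference at 68w was 1.75 (standard error 0.18, adjusted p = 2.1e-06). In arrays labelled Ath+HF 68w, Epcam lay below the 95th percentile of the olfactory receptor genes there, 6.84. Its difference at 68w therefore starts from signals like those of genes that are not used. Cd24a, a surface protein of progenitor cells and leukocytes, was 7.02, 6.68 and 7.41 in arrays labelled Ath+HF 68w and 9.92, 10.28 and 9.73 in arrays labelled Ath+HF+BCAA 68w, with a difference of 2.94 (standard error 0.17, adjusted p = 6.84e-09). Of 12 such genes other than Thy1, 10 were higher and 1 lower with BCAA (median 0.79, beside -0.09 over all genes and 36.2% of all genes called), also Cd44 (2.15, standard error 0.12), Itga6 (2.26, standard error 0.14) and Prom1 (1.56, standard error 0.11).

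These genes are shared in part with bile duct and progenitor cells. Of 7 cholangiocyte and progenitor markers measured of 10, 6 were higher and none lower with BCAA at 68w (median 0.86), beside 36.2% of all genes called. Their summed signal was 11.22 to 11.47 in arrays labelled Ath+HF+BCAA 68w, beside 9.80 to 10.08 in those labelled Ath+HF 68w, 10.26 to 10.44 in the 6 arrays of the Ath+HF diets at 38w and 9.85 to 10.20 in the basal diet arrays. Epcam, Cd24a and Prom1 are themselves in this list, so its count and sum are not independent of their signals. Krt19, a keratin of bile duct cells, was 0.86 higher (standard error 0.13, adjusted p = 9.76e-05). The part of these cells in the higher Ly6d, Epcam and Cd24a signals was not tested.

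**Figure D4:**
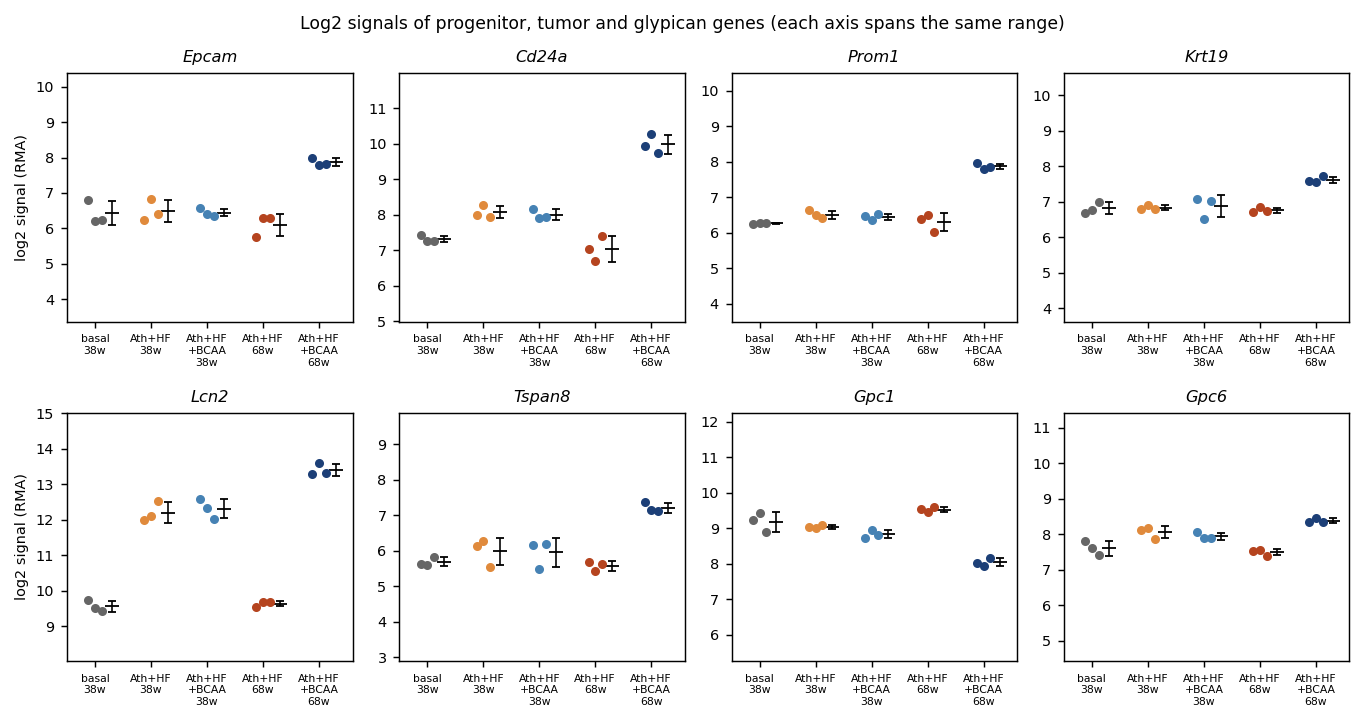
Log2 signal (RMA) of 4 progenitor markers, Lcn2, Tspan8 and the glypicans Gpc1 and Gpc6 on the y axes, with the 5 groups on the x axes; points are arrays, bars the mean ± SD of 3 arrays, and each axis spans the same range of log2 units. In arrays labelled Ath+HF+BCAA 68w, Epcam (7.79 to 7.99) and Prom1 (7.81 to 7.96) lay above all other arrays and Gpc1 (7.94 to 8.17) below all others.

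Among 19 other genes known as markers of hepatocellular carcinoma, 12 were higher and none lower with BCAA at 68w (median 0.82), beside 36.2% of all genes called. Lcn2, a secreted iron-binding protein of inflammation, had means of 9.57 in the basal diet group, 12.21 and 12.32 in the 38w groups on the Ath+HF diets, 9.64 in the group labelled Ath+HF 68w and 13.41 in that labelled Ath+HF+BCAA 68w. Its difference with BCAA at 68w was 3.76 (standard error 0.16, adjusted p = 3.86e-10). Lgals3, a galectin of macrophages, was 2.55 higher (standard error 0.14), Scd2, a fatty acid desaturase, 2.85 higher (standard error 0.20) and Tspan8, a tetraspanin, 1.63 higher (standard error 0.19). On the Ath+HF diets at 38w, 8 of the 19 genes were higher and 2 lower than on the basal diet (median 0.48, beside 7% of all genes called), with Lcn2 at 2.69 (standard error 0.13) and Lgals3 at 1.61 (standard error 0.12). Of 14 targets of Wnt signaling in pericentral hepatocytes, 3 were higher and 7 lower with BCAA at 68w (median -0.16, beside -0.09 over all genes and 36.2% of all genes called). Among the lower genes were Tbx3 (-1.45, standard error 0.13), a T-box factor, and Oat (-1.34, standard error 0.19), ornithine aminotransferase.

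RNA-binding and chromatin proteins of fetal and stem cells were measured for 7 of 9 genes. Of these, none was higher and 1 lower with BCAA at 68w, beside 36.2% of all genes called. Over both diets, 4 were higher and none lower at 68w than at 38w, beside 25.9% of all genes called higher. That count fell to 1 with array medians set equal and to 2 with quantile normalization. Within the diets, 5 of the 7 were higher at 68w without BCAA (median 0.44), beside 37.6% of all genes called. With BCAA none was called (median 0.11), beside 38.8% of all genes. This difference between the diets was not tested for the list. The olfactory receptor genes, the reference for dim signals, also rose without BCAA, with a median of 5.05 at 38w and 5.30 at 68w. With BCAA their median was 5.07 at 38w and 4.83 at 68w. Between the ages over both diets, Trim71, an RNA-binding ubiquitin ligase of stem cells, was 0.41 higher (standard error 0.09, adjusted p = 0.00202), Lin28a, which blocks the maturation of let-7 RNAs, 0.38 higher (adjusted p = 0.0106) and Hmga2, a chromatin protein, 0.30 higher (adjusted p = 0.00224). Igf2bp1 and Igf2bp3, which bind Igf2 messenger RNA, and Lin28b differed by 0.17, 0.02 and 0.01 between the ages, and none of the 3 was called. Of 12 genes of Golgi proteins other than Golm1, 3 were higher and 2 lower with BCAA at 68w (median -0.07), beside 36.2% of all genes called. Quantile normalization gave 3 and 3 among all 13 with Golm1. No common direction of the Golgi genes was seen beside that of Golm1.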

How the data were processed

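Liver RNA of 15 samples was measured on arrays, 3 in each of 5 groups. The deposited values are log2 signals per transcript cluster, which the authors made from the scans by RMA (background correction, quantile normalization and summary of probes) in Affymetrix Expression Console, with the version not given in the sources used here. RMA assumes a like distribution of signals on all arrays, and array medians still ranged from 6.91 to 7.16. Precision is limited by having 3 arrays a group.

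Of 35556 transcript clusters, 21789 carried a single gene symbol, 1621 several and 12146 none in the platform annotation, which can be old. The brightest single-symbol cluster by mean over all arrays stood for each of 19938 genes, and levels were not compared between genes. limma 3.58.1 in R 4.3.3 was fitted with 1 coefficient per group (10 residual degrees of freedom, 11 comparisons), with Benjamini-Hochberg adjustment over all genes. The fit was checked on simulated data. Promoter sequences came from RefSeq (GRCm38.p6).

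Named are the 9 markers in every comparison, the 3 genes most like each of them by Pearson correlation, up to 4 called genes with the smallest p of each gene list with BCAA at 68w and between the ages, and genes fixed by locus or direct role. Members, lists and tests were chosen with earlier results of these data known. Alternatives were the mean of a gene's clusters, no genes under the 25th percentile of mean signal, only the groups compared, equal array medians, quantile normalization of the deposited values, a robust variance trend, weights per array, a replicate block (the replicate number as a term), the methods' test (variance over the 5 groups, with Bonferroni's method over pairs of groups, or after Benjamini-Hochberg over genes), and each array left out. Replicate numbers did not pair the arrays: same-numbered arrays of different groups had correlations of their deviations from -0.156 to 0.183, over 0.1 in 3 of 30 pairs.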

Additional observations from a re-analysis of the deposited data

Results flagged for a closer look

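For Golm1 and Ly6d, the difference between the groups with and without BCAA itself differed between the ages. By the interaction term of limma, it was 2.13 larger at 68w than at 38w for Golm1 (95% interval from 1.79 to 2.46) and 2.14 larger for Ly6d. At 68w all 3 arrays labelled Ath+HF+BCAA were above all 3 arrays labelled Ath+HF for both genes, and at 38w the groups overlapped. These directions rest on the 68w labels, and the part of the macrophage and of the cholangiocyte and progenitor signals, which were also highest in arrays labelled Ath+HF+BCAA 68w, was not tested.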

How the results depend on the processing

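Over 25 alternatives, 1983 of 2152 results for single genes kept their direction and their side of the threshold, 58 fell short of it, 55 passed it and 56 turned their sign; 0 of the last were called as reported. The number of genes called of 8 rose to 2 without dim genes for both 38w Ath+HF diets against basal. For Ath+HF 68w against basal it fell to 2 with the groups compared alone and with the methods' test after Benjamini-Hochberg, and to 1 with Bonferroni's method. For Ath+HF+BCAA 68w against basal it fell to 2 with quantile normalization and with Bonferroni's method. For Ath+HF 68w against 38w it was 4 with the groups compared alone and 1 with Bonferroni's method. For the change of the BCAA difference between the ages it was 4, as against 2, with the groups compared alone, with array weights and with the replicate block; the block changed no other count of members by over 1.5 times, and the arrays share only a number, since 5 of 15 were closest to an array of their own number.

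With an array left out, the counts ranged from 1 to 3 for Ath+HF 68w against 38w (1 without Ath+HF 38w replicate 1 or Ath+HF 68w replicate 2 or 3), from 1 to 4 for Ath+HF 68w against basal (2 without basal replicate 1 or Ath+HF 68w replicate 1 or 2, and 1 without Ath+HF 68w replicate 3), from 1 to 2 for Ath+HF+BCAA 38w against basal (2 without basal replicate 2 or Ath+HF+BCAA 38w replicate 3), from 2 to 5 for Ath+HF+BCAA 68w against basal (2 without basal replicate 1), from 2 to 4 for the change of the BCAA difference (4 without basal replicate 2), and from 1 to 2 for both 38w diets against basal (2 without basal replicate 2 or 3, Ath+HF+BCAA 38w replicate 3 or Ath+HF 68w replicate 2 or 3).

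Signs turned only where the reported log2 difference was 0.18 or less in size. Turned values themselves could be larger, up to 0.3217 for Myc with an array left out. With equal medians and with quantile normalization these were Igf2 in Ath+HF 38w against basal (-0.0655 and -0.0719), Dlk1 in both 38w diets against basal (-0.0455 and -0.0603), Afp (-0.0532 and -3e-04) and Igf2 (-0.0065 and -0.0133) in Ath+HF+BCAA 68w against basal, Golm1 between the ages over both diets (-0.09 and -0.0824) and Igf2 in the change of the BCAA difference (-0.0114 and -0.0407), there also Dlk1 with quantile normalization (-0.0326). With array weights these were Afp in Ath+HF 68w against basal (0.0155) and with BCAA at 38w (-0.0124), and Ly6d (-0.045) and Thy1 (0.0514) in Ath+HF 68w against 38w. With an array left out, the ranges crossing 0 were, in Ath+HF 38w against basal, Afp -0.0411 to 0.2601, Igf2 -0.0752 to 0.1074, Gpc3 -0.2499 to 0.0565 and Myc -0.5359 to 0.2588. In Ath+HF+BCAA 38w against basal they were Afp -0.0201 to 0.2811, Dlk1 -0.2126 to 0.0077, Myc -0.473 to 0.3217 and Thy1 -0.0558 to 0.2935, and for both 38w diets Afp -0.0306 to 0.2706, Igf2 -0.1465 to 0.0361, Dlk1 -0.0796 to 0.0811 and Myc -0.5045 to 0.2902. At 68w against basal they were Afp -0.2217 to 0.0795 without and -0.0656 to 0.2357 with BCAA. Between the ages they were Ly6d -0.098 to 0.4181 and Thy1 -0.1187 to 0.0978 without BCAA, Afp -0.0875 to 0.018 with BCAA and Golm1 -0.0126 to 0.0756 over both diets. With BCAA at 38w they were Afp -0.037 to 0.063, Ly6d -0.1224 to 0.4202 and Myc -0.0302 to 0.182, and for the change of the BCAA difference Igf2 -0.073 to 0.1145 and Dlk1 -0.0134 to 0.1944. The cause was not tested.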

Other observations

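Further genes of the lists were called between the ages over both diets. Phlda2, an imprinted gene of placental growth, was 1.01 higher at 68w, Igfbp5 and Igfbp6, binding proteins of insulin-like growth factors, were 0.56 and 0.49 higher, and S100a11, a calcium-binding protein, was 1.34 higher, all called by limma. Lgr5, a Wnt target and receptor of progenitor cells, differed by -1.19, Sulf2, a sulfatase of heparan sulfate, by -0.58 and Gpc4, a glypican, by -0.46, also called. Among targets of Myc, 5 of 23 were higher and 8 lower at 68w, beside 48.5% of all genes called, with Pa2g4, Eif4e and Nme1, genes of growth and translation, at -0.58, -0.46 and -0.60.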
